A study of Homo sapiens with 44 samples.

Results

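Cultures of human embryonic stem cells differentiated towards heart muscle were compared after 90 and after 20 days. The 6 libraries compared were chosen by the day in their labels, 3 wells of day 90 (replicates 2, 4 and 5) and 3 wells of day 20 (replicates 1, 2 and 3), out of 44 libraries in the series. The cells were H1, an established embryonic stem cell line. Wells of both days were coated with the laminins LN-521 and LN-221. They received CHIR99021, which activates Wnt signalling by inhibiting the kinase GSK3, at day 0, and IWP2, which blocks the secretion of Wnt proteins, at day 3. RPMI 1640 with insulin-free B27 was the medium of the first phase, and from day 11 both groups had RPMI 1640 with CTS B-27 Supplement, so they differed in the time spent in that medium. The labels name no sorting or selection of muscle cells, and 1 cell line was used. Total RNA was sequenced after stranded library preparation. The labels call the wells biological replicates without saying whether they came from separate differentiations, so p-values measure the spread between wells.

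Heart muscle cells made from stem cells resemble cells of the embryonic heart. With time in culture they are known to exchange contractile isoforms, strengthen calcium storage and release, and shift energy supply from glycolysis towards oxidation of fatty acids in mitochondria. The myosin light chain MYL2, the slow myosin heavy chain MYH7 and the cardiac troponin inhibitor TNNI3 are the usual markers of ventricular maturation. Cultures that were not sorted can also hold fibroblasts, epicardial cells, endothelium and derivatives of endoderm.

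CPM stands here for counts scaled to a common library total, with edgeR's TMM factors, and values follow the order of the well numbers. A change is the log2 fold change of day 90 minus day 20 with its standard error (SE), from edgeR's quasi-likelihood test in a fit of the 17 libraries of days 11 to 90. Adjusted p is the Benjamini-Hochberg value over all 21453 genes tested. A gene was called when adjusted p was under 0.05 and the log2 change was at least 1 in either direction. Total counts were 27221714, 6937136 and 27003888 at day 20 and 27156109, 18450560 and 21931909 at day 90. The day 20 wells were sequenced in lanes 1, 2 and 3 and the day 90 wells in lanes 5, 4 and 5. They share no lane, and the fit of 17 libraries has no lane term. A fit of all 44 libraries with lane as a term kept 1455 of the calls in the same direction. It called 2632 genes in all, and the fit of 44 libraries without that term kept 1565 of the calls. Both pool the spread over all days of the series, so they differ from the fit of 17 libraries in more than the lane. Over the tested genes, day 90 wells 2 and 5, which shared a lane, had a Spearman's rho of 0.982 with each other and of 0.944 and 0.951 with well 4, and day 20 wells ranged from 0.915 to 0.955 (genes are not independent replicates). The RNA integrity number was 8.2, 8 and 9.3 at day 20 and 8.8, 9.5 and 8 at day 90.

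In all, 1645 genes were called (7.67% of those tested), 991 higher at day 90 (4.62%) and 654 lower (3.05%). The CPM ranges of the 2 days did not overlap for 28.8% of all tested genes and for 1585 of the called genes. Large falls outnumbered large rises, with 219 called genes at a log2 change of -3 or less and 147 at 3 or more. The median log2 change over all tested genes was -0.07, with quartiles of -0.74 and 0.51. Of the called genes 60.2% were higher, a share that depended on the unit. It was 53.5% with RLE scaling and 45.7% when all 44 libraries entered the fit. With limma on log2(TPM + 1), TPM being the deposited length-scaled values, it was 8.1% of 1045 calls. The median over genes of the difference between the log2 change on that scale and on counts was -0.76. RN7SL1 and RN7SL2, the RNAs of the signal recognition particle, took 40.6%, 21.9% and 42.6% of TPM in the day 20 wells and 54.6%, 41.2% and 53.1% in the day 90 wells. Protein-coding genes took 28.8 ± 5.87% of TPM at day 20 and 17.8 ± 2.97% at day 90 (SD, n = 3 each, exact two-sided permutation p = 0.1, the smallest that 3 against 3 wells allow). Medians of gene lists are therefore given beside the median of all genes. On TPM, 17 of the 21 lists with a positive median turned negative, and 5 of 40 lists changed side relative to all genes. These 5 were the lists of collagens, elastic fibre genes, epicardial markers, neural markers and blood markers.

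**Figure D1:**
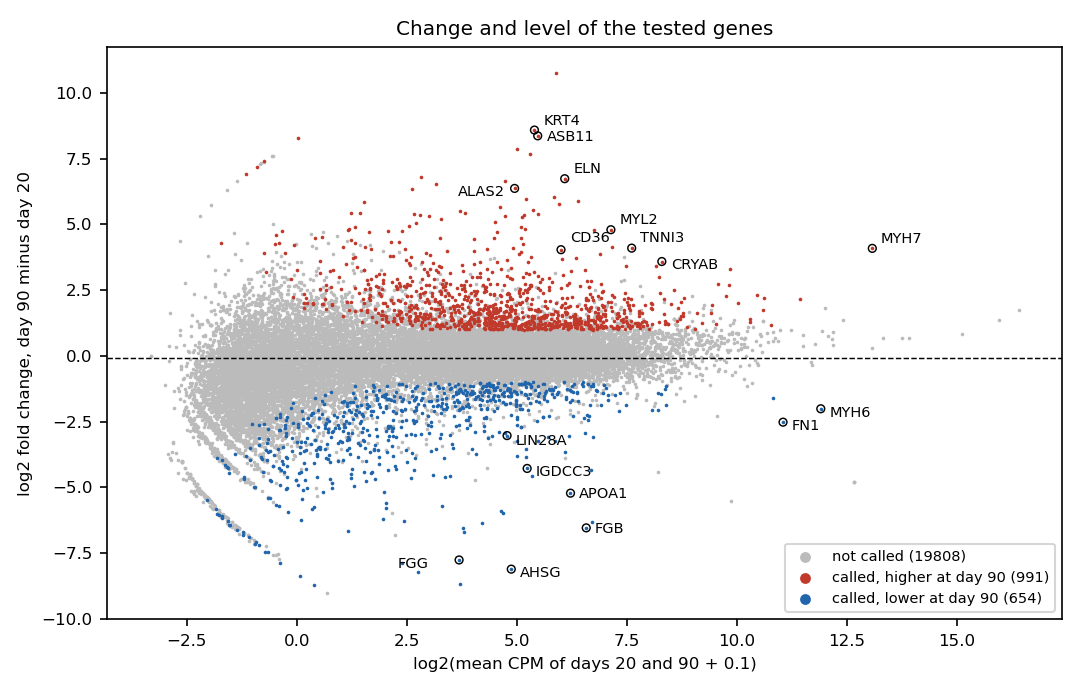
Log2 fold change (day 90 minus day 20) of each of the 21453 tested genes against its level, the log2 of the mean CPM of both days plus 0.1. Red points are the 991 called genes higher at day 90, blue points the 654 lower ones, grey points were not called, and the dashed line is the median of -0.07; liver genes such as AHSG and FGB lie at the bottom and KRT4, ASB11 and ELN at the top.

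The 3 maturation markers were all higher at day 90, and their well ranges did not overlap. In bulk RNA, fewer or more cells of a type and less or more RNA per cell cannot be told apart. MYL2 (ENSG00000111245, GRCh38 chromosome 12, 110910819 to 110920722) had 11.6, 4.66 and 12.6 CPM at day 20 and 222, 256 and 338 CPM at day 90, a log2 change of 4.80 (SE 0.75, adjusted p 0.0015). TNNI3 (ENSG00000129991, chromosome 19, 55151767 to 55157773) had 32.7, 17.2 and 14.4 CPM against 374, 267 and 467 CPM, a change of 4.10 (SE 0.85, adjusted p 0.0081). Both were called with any 1 well left out. At day 30, TNNI3 had 92.4, 72.6 and 32.7 CPM in wells 1, 10 and 3, the last of them level with the highest day 20 well. MYL2 then reached 247 CPM in well 1 and 23.3 and 31.9 CPM in wells 10 and 3. MYH7 (ENSG00000092054, chromosome 14, 23412738 to 23435718) had 1246, 785 and 855 CPM at day 20 and 4305, 36150 and 8525 CPM at day 90, so that day 90 well 4 stood far above the other two. Its change of 4.09 (SE 1.12, adjusted p 0.033) came down to 2.76 without that well and was then not called (adjusted p 0.13). The MYH7 call was also lost without day 20 well 1, 2 or 3 (adjusted p 0.089, 0.12 and 0.075), without day 90 well 5 (0.052), and with lane as a term. MYH6, the fast heavy chain that human ventricles lose as they mature, fell from 4891, 5664 and 7916 CPM to 1686, 896 and 1989 CPM, a change of -2.01 (SE 0.51, adjusted p 0.022), although adjusted p reached 0.051 to 0.084 without day 20 well 2 or any 1 of the day 90 wells.

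The promoter of TNNI3 is shown because it is the one of the 3 marker promoters matched in the RefSeq table. The 250 bases before its RefSeq start (GRCh38.p14, minus strand, read towards the gene) hold none of 5 motifs searched on both strands. Over the 35116 promoters of this length in the table, CCAAT is found in 32%. The motif TTTGAA is in 13.3% of them, while the motif TATAAA is in 10.7%. GTTAAT is in 6.23% of them, and TATTTTTA is in 2.09%.
TNNI3, chr19:55157733-55157982: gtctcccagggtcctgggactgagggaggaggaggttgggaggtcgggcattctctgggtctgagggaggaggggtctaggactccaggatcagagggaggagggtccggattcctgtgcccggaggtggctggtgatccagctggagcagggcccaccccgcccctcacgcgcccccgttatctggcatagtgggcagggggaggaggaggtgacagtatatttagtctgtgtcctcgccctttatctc

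All 19 contractile genes of the mature ventricle had a positive change, with a median of 1.42 against -0.07 over all genes (0.22 against -0.45 on TPM). Of these, 8 were called (42.1%, against 4.62% of all genes called higher) and 14 had ranges that did not overlap (against 16.2% of all genes, with a higher day 90). Besides the markers these were TCAP, the titin cap, with 53.7, 20.7 and 39.4 CPM against 160, 195 and 266 CPM (2.44, SE 0.68, adjusted p 0.034), TNNC1, MYOM1, MYPN and MYOZ2. The count was 4, 5 and 5 without day 20 wells 1, 2 and 3, and 7, 5 and 5 without day 90 wells 2, 4 and 5. Among the fits that left out a well, TCAP was called in the one without day 90 well 2 (adjusted p 0.061 to 0.14 in the others). Titin itself (TTN, 0.67) and the actin ACTC1 (0.41) were not called. Of 12 tested fetal and atrial isoforms, 1 was called higher and 1 lower (8.33% each, against 4.62% and 3.05% of all genes). TNNI1, the slow skeletal troponin inhibitor of the fetal heart, was the member called higher (782.6, 391 and 970 CPM against 1881, 2874 and 2435 CPM, log2 change 1.75, SE 0.47, adjusted p 0.029) and MYH6 the member called lower. The rise of TNNI1 was not called without day 20 well 1 or 2 or day 90 well 4 or 5 (adjusted p 0.074 to 0.12). The troponin inhibitors TNNI1 and TNNI3 were thus both higher at day 90.

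**Figure D2:**
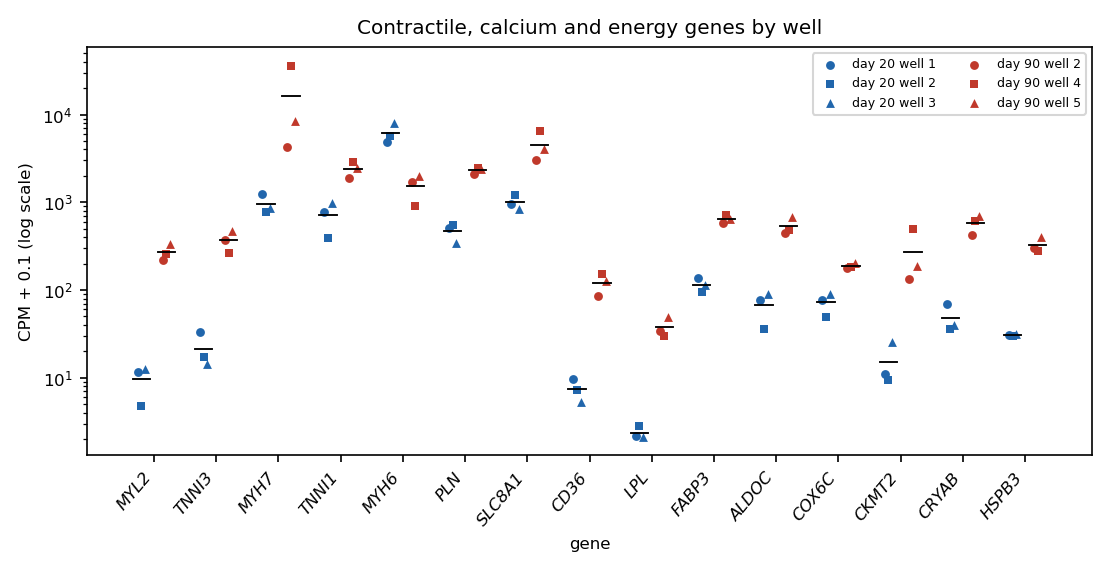
CPM plus 0.1 on a log scale for 15 contractile, calcium and energy genes, with blue markers for the 3 day 20 wells, red markers for the 3 day 90 wells and a bar at each mean. MYH6 is the gene whose red markers lie below the blue ones, and MYH7 shows the widest spread of day 90 wells, from 4305 to 36150 CPM.

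Of 24 tested genes of calcium storage and release, 7 were called higher (29.2%, against 4.62%) and 1 lower (4.17%, against 3.05%), with a median of 1.08 against -0.07 (-0.10 against -0.45 on TPM). CASQ2, the calcium buffer of the cardiac sarcoplasmic reticulum, went from 0.988, 0.647 and 1.97 CPM to 36.1, 6.00 and 17.9 CPM (4.00, SE 0.77, adjusted p 0.0053). PLN, which restrains the calcium pump, had 513, 551 and 344 CPM at day 20 and a narrow 2113, 2486 and 2400 CPM at day 90 (2.31, SE 0.41, adjusted p 0.0032). Both calls held with any 1 well left out. PLN was not called with limma on log2(TPM + 1) or log2(TPM + 0.1). The sodium-calcium exchanger SLC8A1 rose from 952, 1218 and 846 CPM to 2994, 6572 and 4033 CPM (2.17, SE 0.51, adjusted p 0.015), and just missed the threshold without day 20 well 1 (adjusted p 0.056) or day 90 well 4 (0.051). ITPR1, a calcium release channel that is more typical of immature and non-muscle cells, fell from 54.7, 34.3 and 33.9 CPM to 19, 13.7 and 15.1 CPM (-1.36, SE 0.34, adjusted p 0.021), but was not called without day 20 well 1 or day 90 well 4 or 5 (0.08 to 0.1). The release channel RYR2 (1.44) and the pump ATP2A2 (1.09) were not called. With day 20 wells 1 to 3 left out in turn the rises numbered 3, 3 and 5, and with day 90 wells 2, 4 and 5 left out they numbered 7, 3 and 3.

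Of 27 tested ion channel genes, 4 were called higher (14.8%, against 4.62%) and 0 lower, with a median of 0.68 (-0.05 on TPM). ABCC9, a subunit of the potassium channel that senses ATP, rose from 2.20, 3.62 and 4.10 CPM to 21.0, 121 and 27.6 CPM (4.10, SE 0.66, adjusted p 0.0018). KCNQ1, which carries a slow repolarising current, rose from 14.4, 7.63 and 10.1 CPM to 44.7, 113 and 49.0 CPM (2.67, SE 0.47, adjusted p 0.0032). Those 2 calls held with each well left out, whereas the other 2, KCNJ8 and KCNH2, did not, so that the count was 2 without day 20 well 1 or 2 or day 90 well 4. ABCC9 and KCNQ1 were not called with limma on log2(TPM + 1). The pacemaker channel HCN4 had a change of -0.99 and was not called.

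Among 26 genes of the intercalated disc and the membrane skeleton, which join muscle cells and anchor their membranes, 7 were called higher (26.9%, against 4.62%) and 0 lower (median 1.08, and -0.10 on TPM). The dystrophin-linked sarcoglycan SGCA rose from 10.8, 7.76 and 9.06 CPM to 31.9, 65.1 and 44.2 CPM (2.35, SE 0.48, adjusted p 0.0075), and its call held with each well left out. SGCA was not called with limma on log2(TPM + 1) or log2(TPM + 0.1). The intermediate filament gene DES went from 118, 39.7 and 11.0 CPM to 330, 247 and 303 CPM (2.38, SE 0.68, adjusted p 0.039) but was called in 1 of the 6 fits that left out a well, the one without day 20 well 1. The count of the list was 4 without any 1 of the day 20 wells and 9, 4 and 5 without day 90 wells 2, 4 and 5. Junction genes present in many cell types were not called, among them the connexin GJA1 (-0.20), the cadherin CDH2 (-0.35) and the desmosome gene DSP (-0.48).

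Of 23 tested receptor genes 4 were called higher (17.4%, against 4.62%) and 1 lower (4.35%, against 3.05%) (median 0.64, and -0.32 on TPM). NR3C2, the mineralocorticoid receptor, rose from 4.26, 4.01 and 2.27 CPM to 21.4, 27.0 and 19.7 CPM (2.70, SE 0.47, adjusted p 0.0029) and was called with each well left out. NR3C2 was not called with limma on log2(TPM + 1) or log2(TPM + 0.1). NR3C1, the glucocorticoid receptor, rose from 56.6, 26.7 and 39.3 CPM to 102, 93.6 and 94.7 CPM (1.24, SE 0.29, adjusted p 0.014; 0.069 without day 20 well 2). The thyroid hormone receptor THRA had 20.9, 18.4 and 36.2 CPM against 62.6, 72.9 and 69.0 CPM (1.43, SE 0.37, adjusted p 0.025), and adjusted p was 0.058 to 0.11 without day 20 well 1 or 2 or day 90 well 4 or 5. ADORA1, an adenosine receptor, had 4.71, 4.01 and 3.83 CPM against 10.9, 12.4 and 10.6 CPM (1.43, SE 0.40, adjusted p 0.035), and was not called without any 1 of the 6 wells (0.065 to 0.11). The retinoid receptor RXRG fell (-2.09, SE 0.51, adjusted p 0.019), with adjusted p of 0.067 to 0.078 without day 20 well 2 or day 90 well 2 or 5. The number of rises was 2 without day 20 well 1 or 2 or day 90 well 5, and 3 without day 90 well 2 or 4.

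Of 34 cardiac transcription factors, 2 were called higher and 2 lower (5.88% each, near the 4.62% and 3.05% of all genes), and the median was -0.40 (-1.2 against -0.45 on TPM). HOPX, a homeodomain cofactor that marks maturing heart muscle, had 4.83, 4.14 and 2.68 CPM at day 20 and 25.2, 13.5 and 29.8 CPM at day 90 (2.56, SE 0.35, adjusted p 0.00078). HAND2 rose from 80.2, 100 and 67.9 CPM to 194, 455 and 306 CPM (1.94, SE 0.38, adjusted p 0.0053). HEY1, a Notch target of atrial and endothelial cells, fell from 50.9, 39.1 and 36.6 CPM to 4.62, 7.10 and 5.46 CPM (-2.88, SE 0.40, adjusted p 0.00078). The calls of these 3 genes held with each well left out. HAND2 was not called with limma on log2(TPM + 1) or log2(TPM + 0.1). IRX2 was the other called fall (-2.36, SE 0.63, adjusted p 0.029), lost without day 20 well 1 or 2 or day 90 well 2 or 5 (adjusted p 0.065 to 0.11), and 4 falls were called without day 20 well 3. The core factors NKX2-5 (0.25), GATA4 (-0.11), TBX5 (-0.48) and MEF2A (0.64) were not called.

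Of 39 genes of fatty acid uptake and oxidation, 7 were called higher (17.9%, against 4.62%) and 0 lower (median 0.50 against -0.07, and -0.38 against -0.45 on TPM). The uptake genes led. CD36, the fatty acid translocase, rose from 9.62, 7.12 and 5.22 CPM to 85.2, 152 and 126 CPM (4.04, SE 0.55, adjusted p 0.00069). FABP3, the fatty acid carrier of heart muscle, rose from 135, 95.5 and 115 CPM to 580, 724 and 644 CPM (2.5, SE 0.36, adjusted p 0.001). LPL, which frees fatty acids from lipoproteins, rose from 2.05, 2.72 and 2.04 CPM to 34.2, 30.1 and 49.0 CPM (4.07, SE 0.96, adjusted p 0.016; 0.065 and 0.059 without day 20 wells 1 and 2). CPT1B (-0.33), which admits fatty acids to mitochondria, and the coactivator PPARGC1A (-0.62) were not called. The count was 4 and 3 without day 20 wells 1 and 2 and 4 without day 90 well 5.

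Nuclear-encoded subunits of the respiratory chain had a positive change in all 79 cases, and 66 had ranges that did not overlap, against 16.2% of all tested genes with such ranges and a higher day 90. The change was moderate, with a median of 0.78, and 20 were called (25.3%), against 4.62% of all tested genes. On TPM the median was -0.28 against -0.45 over all genes, and 0 were called. COX6C, a subunit of cytochrome oxidase, had 77.6, 48.7 and 90.3 CPM at day 20 and 178, 182 and 202 CPM at day 90 (1.37, SE 0.24, adjusted p 0.0028) and was called with each well left out. NDUFA11, of complex I, had 54.1, 37.1 and 87.1 CPM against 151, 151 and 157 CPM (1.36, SE 0.31, adjusted p 0.014; 0.058 and 0.067 without day 20 wells 1 and 2). COX7A1, a muscle form of another subunit of cytochrome oxidase, went from 0.570, 0.518 and 1.56 CPM to 7.81, 10.0 and 14.2 CPM (3.53, SE 1.07, adjusted p 0.049), and was not called without any 1 of the 6 wells (0.056 to 0.16). The number called was 10, 5 and 27 without day 20 wells 1, 2 and 3, and 12, 18 and 9 without day 90 wells 2, 4 and 5.

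The 13 mRNAs encoded by mitochondrial DNA were not called in either direction. edgeR and DESeq2 each called 0, 0 had an unadjusted edgeR p under 0.05, and the median was -0.83, with MT-CO1 (0.31) and MT-CO3 (0.47) positive. The share of counts from mitochondrially encoded genes was 1.05%, 4.56% and 0.819% at day 20 and 0.890%, 2.36% and 1.39% at day 90. The wells of both days overlapped, with means of 2.14 ± 2.10% and 1.55 ± 0.747% (SD, n = 3 each), a difference of -0.596 percentage points (exact two-sided permutation p = 0.9). Without day 20 well 2, the shallowest library, the difference was 0.613.

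Of 30 genes of glycolysis and lactate handling, 4 were called higher (13.3%, against 4.62%) and 0 lower (median 0.65, and -0.37 against -0.45 on TPM). ALDOC, an aldolase, rose from 77.1, 35.6 and 89.1 CPM to 444, 486 and 678 CPM (2.99, SE 0.44, adjusted p 0.0011). PGAM2, the muscle phosphoglycerate mutase, rose from 11.9, 7.63 and 14.5 CPM to 72.3, 70.2 and 98.0 CPM (2.81, SE 0.58, adjusted p 0.0078). Both held with each well left out. PGK1 (1.4) was not called without day 20 well 2 or day 90 well 5 (adjusted p 0.063 and 0.067), nor PYGB (1.34) without day 20 well 1 or 2 or day 90 well 4 (0.052 to 0.1), and 2 genes of the list were called without day 20 well 2. The glucose transporters SLC2A4 (2.03), which responds to insulin in muscle, and SLC2A3 (-1.51), typical of neurons and embryonic cells, were not called.

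Some genes of phosphate buffering and small heat shock proteins rose as well. CKMT2, the creatine kinase of muscle mitochondria, rose from 11.0, 9.32 and 25.4 CPM to 135, 490 and 186 CPM (4.14, SE 0.63, adjusted p 0.0013). CRYAB, a small heat shock protein that protects desmin, rose from 68.4, 35.7 and 39.7 CPM to 421, 617 and 703 CPM (3.59, SE 0.42, adjusted p 0.00016). HSPB3, a muscle member of that family, had 30.8, 30.0 and 31.1 CPM at day 20 and 298, 280 and 404 CPM at day 90 (3.42, SE 0.31, adjusted p 3.5e-05). These 3 calls held with each well left out, although CKMT2 was far higher in day 90 well 4 than in wells 2 and 5. Of the 18 genes of the list, 4 were called higher (22.2%, against 4.62%) and 2 lower (11.1%, against 3.05%; median 1.06, and -0.05 on TPM). The 2 lower ones were CKB, the brain creatine kinase (-1.42, SE 0.37, adjusted p 0.025), and GATM (-1.29, SE 0.39, adjusted p 0.048). They drew on day 20 well 3, where CKB had 314 CPM against 143 and 90.3 CPM in wells 1 and 2, and neither was called without it. Neither was called without any 1 of the day 90 wells, nor GATM without day 20 well 1. CRYAB overlaps HSPB2 on the other strand.

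ALAS2, the erythroid enzyme that starts heme synthesis, rose from 0.760, 0.259 and 0.984 CPM to 58.1, 38.1 and 86.7 CPM (6.37, SE 0.63, adjusted p 5.5e-05), while the blood marker list given further on did not rise. NDUFA4L2, a mitochondrial protein induced by the hypoxia factor HIF1, rose from 3.16, 1.29 and 1.56 CPM to 52.0, 119 and 90.3 CPM (5.40, SE 0.56, adjusted p 7.1e-05). Both calls held in all 18 alternative fits. A list of 22 hypoxia response genes, drawn up after such genes were seen among the calls, had 9 called higher (40.9%, against 4.62%) and 0 lower (median 0.84, and -0.43 against -0.45 on TPM). In it CA9, a carbonic anhydrase, rose from 0.152, 0 and 0.136 CPM to 25, 11.0 and 5.52 CPM (6.81, SE 0.73, adjusted p 9.2e-05), and EGLN3, an oxygen sensor, rose from 50.8, 36.2 and 27.0 CPM to 165, 266 and 196 CPM (2.46, SE 0.41, adjusted p 0.0023). Its glycolytic members LDHA (0.41), SLC2A1 (0.44) and PDK1 (0.54) were not called. The list had 6 calls without day 20 well 1, 4 without day 20 well 2, 6 without day 90 well 4 and 4 without day 90 well 5. The oxygen reaching the cells was not measured.

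ASB11, a muscle ubiquitin ligase subunit, rose from 0.380, 0.129 and 0.204 CPM to 30.6, 164 and 71.3 CPM (8.37, SE 1.10, adjusted p 0.00079). TNNI3K, a heart kinase that binds troponin I, rose from 1.90, 1.81 and 4.31 CPM to 118, 204 and 173 CPM (5.90, SE 0.83, adjusted p 0.0008). Its gene overlaps the readthrough gene FPGT-TNNI3K on the same strand, so reads may be split between them. The long non-coding RNA BANCR rose from 1.18, 0.388 and 3.19 CPM to 60.2, 84.5 and 66.5 CPM (5.36, SE 0.76, adjusted p 0.0008). In each of these 3 genes the lowest day 90 well was far above the highest day 20 well, and the calls held with each well left out. Over all 3060 long non-coding genes tested, 68 were called higher and 33 lower. Together these were 3.3% of them, below the 7.67% of all tested genes and the 9.12% of protein-coding genes. HLA-F-AS1 rose too (3.50, SE 0.56, adjusted p 0.0017), but lies antisense to HLA-F. LINC01611 had at most 3 counts in any day 20 well, with a ratio of 20.8 and a counting interval of 8.92 to 64.1, and was not called without day 20 well 1 or day 90 well 4 or 5 (adjusted p 0.063 to 0.09). MIR122HG, the host transcript of a liver microRNA, fell from 0.874, 3.62 and 18.9 CPM to 0.314, 0 and 0.119 CPM (-5.58, SE 1.2, adjusted p 0.010; 0.051 without day 90 well 5). LINC00261 fell from 5.82, 5.18 and 48.3 CPM to 0.224, 1.52 and 0.830 CPM (-4.59, SE 1.07, adjusted p 0.015), drew on day 20 well 3, and was not called without it (-2.75, adjusted p 0.065) or without day 90 well 2 or 5 (0.058 and 0.065). LINC01356 had at most 2 counts in any day 90 well, a ratio of 25 with a counting interval of 9.77 to 91.8.

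The deepest falls were in genes of the liver and its endodermal precursors. All 24 tested endoderm and liver markers had a negative change, and 15 were called (62.5%, against 3.05% of all genes called lower). Ranges did not overlap for 22, against 12.6% of all tested genes with such ranges and a lower day 90. The median was -4.48, and -3.22 against -0.45 on TPM. Their summed level was 2716, 1562 and 6276 CPM in the day 20 wells and 67.0, 321 and 65.4 CPM in the day 90 wells.

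Plasma protein genes led the list. AHSG, which encodes fetuin A, fell from 66.9, 23.2 and 84.8 CPM to 0.135, 0 and 0.474 CPM (-8.11, SE 1.88, adjusted p 0.015). The 3 fibrinogen chains lie side by side on chromosome 4 and fell together. FGB (ENSG00000171564, 154562956 to 154571086) fell from 161, 96.5 and 309 CPM to 0.673, 4.69 and 0.889 CPM (-6.54, SE 1.54, adjusted p 0.016). FGA (ENSG00000171560, 154583126 to 154590766) fell from 40.6, 25.4 and 80.8 CPM to 0.449, 1.72 and 0.415 CPM (-5.88, SE 1.5, adjusted p 0.023). FGG (ENSG00000171557, 154604134 to 154612967) had 20.4, 9.45 and 46.6 CPM at day 20 and at most 2 counts in any day 90 well, a ratio of 228 with a counting interval of 105 to 621 (95%, counting error only). Day 90 well 4 was the highest of its group for FGA and FGB, as it was for TTR (0.987, 8.55 and 0.652 CPM).

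The apolipoproteins APOA1 (122, 42.3 and 271 CPM against 2.83, 4.96 and 3.97 CPM, -5.22, SE 1.28, adjusted p 0.019) and APOA2 (30.9, 22.6 and 55.4 CPM against 0.673, 0.345 and 0.237 CPM, -6.37, SE 1.14, adjusted p 0.0034) fell as well, and so did transferrin (TF, -5.96, SE 1.49, adjusted p 0.021). APOA4, outside the list, fell from 56.8, 15.3 and 8.99 CPM to 0.269, 0.345 and 0.237 CPM (-6.56, SE 1.63, adjusted p 0.021; 0.068 to 0.085 without day 20 well 1 or any 1 of the day 90 wells). GNRH2, a hormone gene among the 10 largest falls, went from 11.4, 3.36 and 1.29 CPM to 0.0897, 0.621 and 0.0593 CPM (-4.43, SE 1.14, adjusted p 0.024; 0.086 to 0.12 without day 20 well 1 or day 90 well 2 or 5). APOA2 was called with each well left out. AHSG, FGG, FGA and APOA1 were not called without any 1 of the day 90 wells (adjusted p 0.052 to 0.098), nor FGB and TF without well 2 or 5 (0.06 to 0.091). The list count was 12 without any 1 of the day 20 wells and 6, 12 and 1 without day 90 wells 2, 4 and 5, although the changes themselves stayed close, as for FGB at -6.09 and -6.17 without wells 2 and 5. AFP, the fetal serum protein, had the highest day 20 mean of the list and a change of -5.51 without being called. The endoderm factors FOXA2 (-3.74) and FOXA1 (-3.02) were called, while HNF4A (-2.95) was not. At day 30 FGB was already at 3.45, 1.12 and 29.7 CPM.

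The fibrinogen promoters are shown because the 3 genes share a locus and a direction. Each sequence is the 250 bases before the RefSeq start (GRCh38.p14), read towards the gene, with CCAAT (or ATTGG) and GTTAAT (or ATTAAC) in capitals. These genes and this motif were chosen after the falls were seen.
FGA, chr4:154590743-154590992, minus strand: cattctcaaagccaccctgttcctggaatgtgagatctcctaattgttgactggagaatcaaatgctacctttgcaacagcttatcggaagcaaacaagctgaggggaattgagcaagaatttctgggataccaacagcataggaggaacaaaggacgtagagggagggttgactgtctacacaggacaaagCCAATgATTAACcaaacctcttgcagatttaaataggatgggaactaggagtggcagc
FGB, chr4:154562730-154562979, plus strand: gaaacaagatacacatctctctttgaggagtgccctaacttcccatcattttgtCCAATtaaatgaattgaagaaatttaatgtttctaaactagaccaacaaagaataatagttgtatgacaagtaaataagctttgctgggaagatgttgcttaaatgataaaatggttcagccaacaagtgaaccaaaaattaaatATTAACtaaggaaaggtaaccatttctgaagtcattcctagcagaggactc
FGG, chr4:154612657-154612906, minus strand: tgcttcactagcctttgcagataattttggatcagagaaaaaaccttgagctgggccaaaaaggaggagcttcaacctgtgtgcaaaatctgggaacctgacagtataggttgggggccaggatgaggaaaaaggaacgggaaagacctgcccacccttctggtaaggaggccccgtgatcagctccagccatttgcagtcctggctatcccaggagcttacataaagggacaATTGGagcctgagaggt

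ATTAAC began 52 bases before the start of FGA and 51 bases before that of FGB, and FGG had none in the window. Of the 24 listed endoderm and liver genes 14 had a promoter in the table, and 4 of them held the motif, AFP, ALB, FGA and FGB (28.6%, against 6.23% of all promoters). CCAAT was found in 7 of the 14 (50%, against 32.0%). A match of letters is a description and not a bound site.

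**Figure D3:**
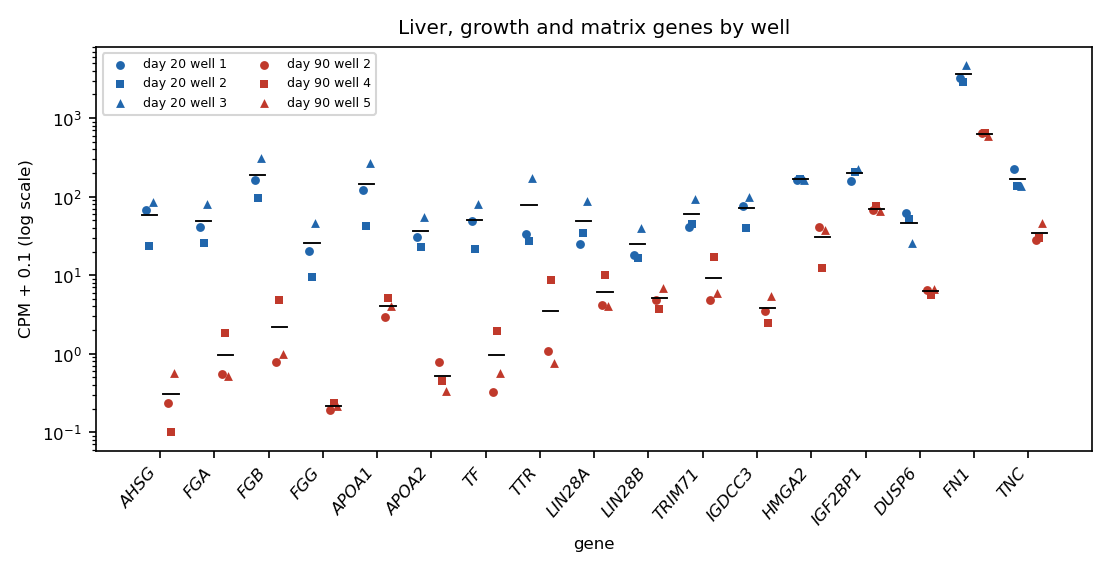
CPM plus 0.1 on a log scale for 17 liver, growth and matrix genes, with blue markers for the 3 day 20 wells, red markers for the 3 day 90 wells and a bar at each mean. For the genes shown all red markers lie below all blue ones, by the largest distance in the liver genes on the left.

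LIN28A and LIN28B block maturation of the let-7 microRNAs, which in turn repress HMGA2, IGF2BP1 and TRIM71. Of 16 genes in this list 0 were called higher and 8 lower (50%, against 3.05%; median -1.67, and -1.72 against -0.45 on TPM). LIN28A fell from 25.1, 34.3 and 86.8 CPM to 4.13, 9.93 and 3.91 CPM (-3.03, SE 0.48, adjusted p 0.0016). TRIM71 fell from 40.6, 44.1 and 93.0 CPM to 4.67, 17.1 and 5.87 CPM (-2.69, SE 0.47, adjusted p 0.003). HMGA2, a chromatin protein of growing tissue, fell from 164, 168 and 165 CPM to 40.6, 12.4 and 38.0 CPM (-2.45, SE 0.46, adjusted p 0.0044). IGDCC3, a let-7 target of the immunoglobulin family, fell from 76.8, 39.6 and 98.0 CPM to 3.37, 2.34 and 5.34 CPM (-4.28, SE 0.39, adjusted p 3.5e-05). The calls of these 4 genes held in all 18 alternative fits, and 7 or 8 of the list were called with any 1 well left out. HMGA1, ARID3B, IGF2BP1 and LIN28B were the other called members. The imprinted growth genes IGF2 (0.69), H19 (1.93) and DLK1 (0.84) were not called. Of 10 pluripotency markers 4 were called lower (40%, against 3.05%), and all 10 changes were negative. The called members were LIN28A, ZFP42 (5.97, 6.73 and 5.43 CPM against 0.538, 0.690 and 0.297 CPM, -3.56, SE 0.49, adjusted p 0.00074), L1TD1 and the DNA methyltransferase DNMT3B (-1.62, SE 0.25, adjusted p 0.0013). The master factor POU5F1 (-0.74) was not called.

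Of 36 genes of mitosis and 39 of DNA replication, edgeR and DESeq2 called 0, with medians of -0.16 and -0.11, and an unadjusted edgeR p under 0.05 was found for 0 and 2 of them. The sums of each list overlapped between the days. Mitosis genes summed to 636, 568 and 3101 CPM at day 20 and to 1617, 1123 and 1319 CPM at day 90, with day 20 well 3 apart from its group. DNA replication genes summed to 982, 761 and 2481 CPM at day 20 and to 1525, 922 and 1570 CPM at day 90. In that list day 90 well 4 also lay below day 20 well 1. TOP2A, a topoisomerase of dividing cells, had 65.5, 54.2 and 381 CPM against 176, 144 and 144 CPM (-0.11, SE 0.71, adjusted p 0.94). Without day 20 well 3, 1 mitosis gene and 1 replication gene were called higher and the medians were 1.2 and 0.54. Of 17 cyclins and inhibitors of cyclin-dependent kinases, 3 were called higher (17.6%, against 4.62%) and 1 lower (5.88%, against 3.05%; median 0.69, and -0.36 against -0.45 on TPM). CDKN2D, an inhibitor of CDK4 and CDK6, rose from 2.55, 1.29 and 5.02 CPM to 13.0, 11.9 and 13.2 CPM (2.07, SE 0.42, adjusted p 0.0074), while its relative CDKN2B, a target of TGF-beta, fell from 110, 49.2 and 17.9 CPM to 13.3, 6.07 and 8.01 CPM (-2.69, SE 0.51, adjusted p 0.0051). CCND3 (1.5) and CDKN1B (1.13) were called but lost the call in 4 and 5 of the 6 fits that left out a well, with 1 rise called without day 20 well 2 or day 90 well 2 or 5.

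A list of 30 ribosome biogenesis genes, added after such genes were seen among the falls, had 12 called lower (40%, against 3.05%) and 0 higher (median -1.05, and -1.69 against -0.45 on TPM). In it 21 had ranges that did not overlap, against 12.6% of all tested genes with such ranges and a lower day 90. DDX21, a nucleolar helicase, fell from 298, 223 and 92.2 CPM to 77.9, 48.5 and 66.4 CPM (-1.67, SE 0.47, adjusted p 0.035). The number of list members called lower was 0, 1 and 17 without day 20 wells 1, 2 and 3, and 5, 0 and 1 without day 90 wells 2, 4 and 5. DDX21 itself was called only without day 20 well 3 among these fits. Ribosomal protein genes had 43 of 44 changes positive, a median of 0.60 (-0.44 against -0.45 on TPM) and 1 call higher (2.27%, against 4.62%). That gene was RPL10 (1.30, SE 0.37, adjusted p 0.039), and its call was lost without day 20 well 2 or 3 or day 90 well 2 or 5 (0.085 to 0.16) and with lane as a term.

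Of 16 ERK feedback genes, a list added in the same way, 6 were called lower (37.5%, against 3.05%) and 0 higher (median -1.19, and -1.39 against -0.45 on TPM). DUSP6, a phosphatase that switches off ERK, fell from 62.4, 52.4 and 25.4 CPM to 6.37, 5.52 and 6.64 CPM (-2.92, SE 0.46, adjusted p 0.0016), and DUSP9 fell from 14.2, 8.28 and 34 CPM to 1.08, 1.52 and 1.25 CPM (-3.89, SE 0.56, adjusted p 0.00088). DUSP6 and DUSP9 were called in all 18 alternative fits, and they made up the 2 calls left without day 20 well 1 or 2 or without any 1 of the day 90 wells. Among 21 immediate early genes 3 were called lower (14.3%, against 3.05%), EGR1, EGR3 and FOSL1, with day 20 well 3 the lowest of its group for each. EGR1 had 31.7, 41.0 and 6.34 CPM against 3.05, 6.28 and 3.44 CPM (-2.63, SE 0.63, adjusted p 0.017), and 0 of the list were called without day 20 well 1 or 2 or day 90 well 2 or 5. The count was 1 without day 90 well 4 and 4 without day 20 well 3.

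Of 32 genes of TGF-beta and BMP signalling, 3 were called higher (9.38%, against 4.62%) and 2 lower (6.25%, against 3.05%; median -0.35, and -1.31 against -0.45 on TPM). The receptor TGFBR2 had 23.1, 20.4 and 20.6 CPM at day 20 and 77.5, 76.1 and 82.2 CPM at day 90 (1.88, SE 0.31, adjusted p 0.0019). The ligand BMP10, made by trabecular and atrial muscle, fell from 22.8, 10.5 and 2.41 CPM to 0.673, 0.345 and 0.712 CPM (-4.34, SE 0.76, adjusted p 0.0031). Both held with each well left out. TGFB2 fell (-1.74, SE 0.40, adjusted p 0.014; 0.055 and 0.054 without day 20 well 2 and day 90 well 4). BMP7 (2.04) drew on day 90 well 4, with 121, 611 and 143 CPM, and had a change of 0.92 without it. The rises numbered 1 without any 1 of the day 20 wells or without day 90 well 4 or 5. Of 23 YAP and TEAD target genes 3 were called lower (13%, against 3.05%), TGFB2, NUAK2 and AXL, and 0 without day 20 well 2 or day 90 well 4.

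Matrix genes split. Of 32 genes of elastic fibres and matrix remodelling 6 were called higher (18.8%, against 4.62%) and 3 lower (9.38%, against 3.05%; median 0.55, and -0.54 against -0.45 on TPM). ELN, which encodes elastin, rose from 1.33, 2.07 and 0.644 CPM to 192, 9.86 and 202 CPM (6.74, SE 0.93, adjusted p 0.00078). Fibronectin (FN1) fell from 3239, 2894 and 4699 CPM to 646, 640 and 598 CPM (-2.52, SE 0.50, adjusted p 0.0061), and tenascin C (TNC) from 226, 136 and 135 CPM to 27.7, 29.4 and 45.8 CPM (-2.27, SE 0.39, adjusted p 0.0029). These 3 calls held with each well left out. The number of rises was 1 without day 20 well 2 or day 90 well 2, 2 without day 20 well 3, and 4 without day 90 well 4 or 5. Of 23 collagen genes 3 were called higher (13%, against 4.62%) and 1 lower (4.35%, against 3.05%; median 0.39). COL21A1 rose from 30.6, 13.5 and 8.61 CPM to 135, 177 and 198 CPM (3.27, SE 0.67, adjusted p 0.0079) and was called with each well left out. The main fibrillar genes COL1A1 (-0.18), COL1A2 (0.69) and COL3A1 (0.90) were not called. COL2A1, of cartilage, fell from 448, 304 and 828 CPM to 122, 179 and 132 CPM (-1.87, SE 0.47, adjusted p 0.023; 0.073 to 0.091 without day 20 well 3 or day 90 well 2 or 5).

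ELN was one of the genes in which day 90 well 4 differed from wells 2 and 5. Of 897 protein-coding genes called higher, well 4 was more than 3 times below the mean of the other two in 60 and more than 3 times above it in 31. Among the first were OGN, MGP and FAP. OGN, a small matrix proteoglycan, had 0.266, 0.647 and 0.102 CPM at day 20 and 102, 2.90 and 85.2 CPM at day 90 (7.86, SE 1.26, adjusted p 0.0017). MGP, which inhibits calcification, had 3.50, 1.42 and 0.136 CPM against 214, 16.1 and 109 CPM (6.05, SE 1.07, adjusted p 0.0032), and FAP, a protease of activated fibroblasts, had 0.266, 0.647 and 0.102 CPM against 22.7, 1.52 and 12.3 CPM (5.39, SE 0.96, adjusted p 0.0032). The calls of OGN, MGP and FAP held with each well left out, well 4 included. The 15 fibroblast markers had 2 called higher (13.3%, against 4.62%), OGN and FAP (median 1.36, and -0.07 against -0.45 on TPM). Their sum was 10400, 3160 and 2197 CPM at day 20 and 15870, 2443 and 8965 CPM at day 90, so day 90 well 4 lay among the day 20 wells. Among the second, picked after their values were seen, were the muscle genes MYH7, CKMT2, ABCC9, FHL2 and DMD and the complement gene C4A. Contractile genes of the mature ventricle summed to 103700 CPM in day 90 well 4 and to 36010 and 40930 CPM in wells 2 and 5. Most of the sum in well 4 came from MYH7 (36150 CPM) and TTN (37560 CPM). Members of that list went both ways. TNNI3, TNNC1 and MYOZ2 were lowest in well 4 among the day 90 wells, while MYOM1 and MYBPC3 were highest there. The part of cell composition in these differences was not tested.

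**Figure D4:**
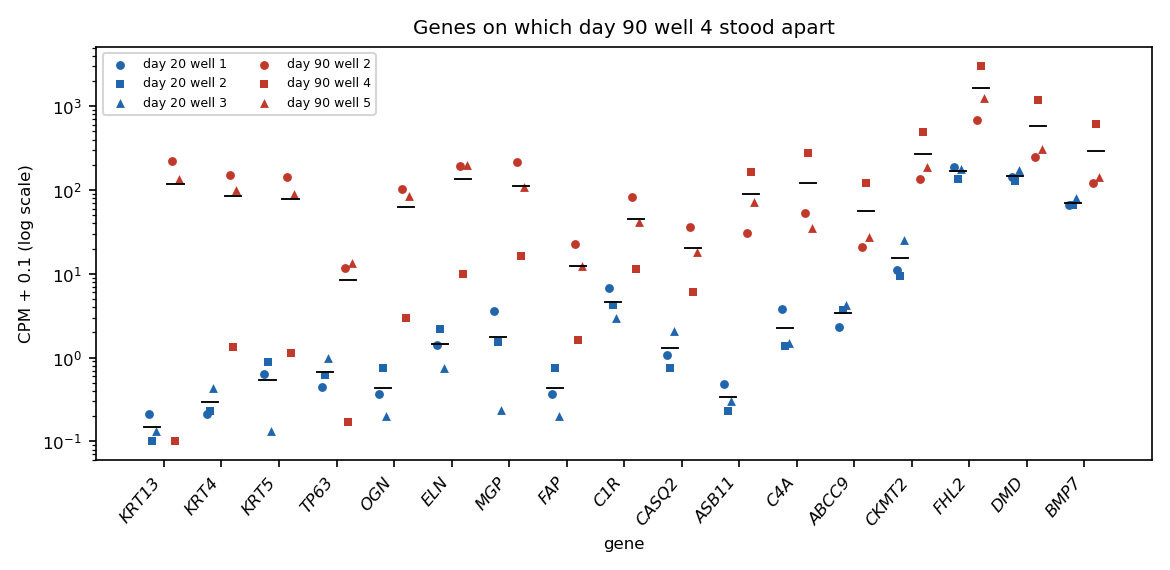
CPM plus 0.1 on a log scale for 17 genes, 10 in which day 90 well 4 (red square) lay below day 90 wells 2 and 5 and 7 in which it lay above them, with the 3 day 20 wells in blue and a bar at each mean. For KRT13 and TP63 the red square falls level with or below the lowest day 20 well, and for KRT5 it lies just above the highest.

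Keratins of stratified epithelium appeared at day 90 in the same 2 wells. KRT4 had 0.114, 0.129 and 0.339 CPM at day 20 and 152, 1.24 and 99.4 CPM at day 90 (8.59, SE 1.34, adjusted p 0.0015). KRT5 had 0.532, 0.776 and 0.0339 CPM against 144, 1.03 and 90.1 CPM (7.69, SE 1.46, adjusted p 0.005). KRT13 had at most 3 counts in any day 20 well, and 220, 0 and 136 CPM at day 90, a ratio of 1880 with a counting interval of 735 to 6900. A list of 26 squamous epithelium genes, added after KRT4 and KRT5 were seen among the rises, had 21 tested, 10 called higher (47.6%, against 4.62%) and 0 lower (median 2.83, and 0.48 against -0.45 on TPM). Of the 21, 4 had ranges that did not overlap, against 16.2% of all tested genes with such ranges and a higher day 90. Their sum was 187, 151 and 146 CPM at day 20 and 1121, 242 and 890 CPM at day 90. The basal cell factor TP63 was among the called members, and KRT14 (-4.31), a partner of KRT5, was not called. The number called was 5 without any 1 of the day 20 wells, 6 without day 90 well 2 or 5 and 13 without well 4. Wells 2 and 5 shared lane 5, and the part of the lane in this difference was not tested.

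Of 30 tested genes of antigen presentation and complement, 13 were called higher (43.3%, against 4.62% of all genes) and 0 lower (median 1.74, and 0.48 against -0.45 on TPM). Positive changes numbered 29, and 20 genes had ranges that did not overlap, against 16.2% of all tested genes with such ranges and a higher day 90. Among those called were B2M and HLA-C of the class I complex, its peptide transporter TAP1 and chaperone TAPBP, the immunoproteasome subunit PSMB8, IRF1, IFIT1, IFIT3 and IFI6 of the interferon response, and C1R and C1S of the complement system. TAP1 rose from 2.36, 1.81 and 2.44 CPM to 15.1, 44.6 and 14.6 CPM (3.47, SE 0.60, adjusted p 0.0029) and PSMB8 from 1.25, 0.259 and 0.204 CPM to 12.8, 8.62 and 9.49 CPM (4.08, SE 0.86, adjusted p 0.009). C4A and C4B were highest in well 4, with 53.8, 276 and 35.2 CPM and 93.5, 454 and 72.1 CPM at day 90. Since these are near-identical copies, their reads cannot be assigned with certainty. The number called was 9 to 13 with 1 well left out and 9 without day 20 well 2 or day 90 well 4. HLA-E (0.10) and ISG15 (0.72) were not called, and TAP1 and PSMB8 both overlap PSMB9 on the other strand.

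Of 17 endothelial markers 5 were called lower (29.4%, against 3.05%) and 0 higher (median -1.57, and -0.72 against -0.45 on TPM). They were FLT1, a VEGF receptor (112, 98.5 and 30.3 CPM against 19, 6.34 and 22.4 CPM, -2.33, SE 0.50, adjusted p 0.0097), PECAM1, CDH5, PLVAP and ESAM, and 3 were called without day 20 well 1 or 2 or day 90 well 4 or 5. The list summed to 376, 295 and 139 CPM at day 20 and 301, 108 and 102 CPM at day 90. Of 15 tested neural markers 3 were called lower (20%, against 3.05%), STMN2, NEFL and NEFM, but 1 without day 20 well 1 or 2 or day 90 well 4 or 5. Among 12 tested blood and macrophage markers 1 was called lower (8.33%, against 3.05%), CSF1R, with 3 counts in all at day 90 (ratio 35.3, counting interval 12.1 to 171). The list summed to at most 10.0 CPM in each well. C1QA, C1QB, TYROBP, HBB, HBG1 and HBZ were too low to be tested. Of 11 tested cartilage and bone markers 2 were called lower (18.2%, against 3.05%), SOX9 and COL2A1, and 0 higher, with 3 changes positive and 8 negative (median -1.24). SOX9, of cartilage precursors, fell from 39.5, 58.6 and 11.7 CPM to 4.49, 3.72 and 4.15 CPM (-3.14, SE 0.72, adjusted p 0.014; 0.052 to 0.059 without day 20 well 2 or day 90 well 4 or 5). COL11A2 was higher at day 90 without overlap (68.3, 960 and 120 CPM, log2 change 2.65) but was not called. Fast skeletal myosin MYH2 fell from 6.31, 10.7 and 2.14 CPM to 0.538, 0.0690 and 0.0593 CPM (-4.69, SE 0.73, adjusted p 0.0014). It was the called member of 7 skeletal muscle markers tested (14.3%, against 3.05%), while PAX3, MYF5 and MYOD1 were too low to be tested. In that list 4 changes were positive and 3 negative (median 0.69). MYOG (3.06, at most 1.78 CPM in any well of the 2 days) and TNNT3 (1.55) had higher day 90 ranges without overlap but were not called. Of 14 smooth muscle markers edgeR called 0 (median -0.24) and DESeq2 2 higher and 1 lower, and 4 had an unadjusted edgeR p under 0.05. ACTA2 had 675, 361 and 508 CPM at day 20 and 664, 30.3 and 553 CPM at day 90, again with well 4 low. Of 12 epicardial markers 2 were called higher (16.7%, against 4.62%), UPK1B (3.08, 2.07 and 0.916 CPM against 6.91, 34.7 and 3.97 CPM) and MSLN (1.14, 0.776 and 0.407 CPM against 9.83, 2.90 and 2.79 CPM). The list as a whole did not move to one side, with 6 changes positive and 6 negative (median 0.12). WT1 (0.64), TBX18 (-0.49) and TCF21 (-1.94) were not called. The epicardial count was 0 without day 20 well 2 or 3 and 1 without day 90 well 2 or 4.

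Cholesterol and lipid synthesis genes had 4 of 28 called higher (14.3%, against 4.62%) and 0 lower (median 0.84, and -0.16 against -0.45 on TPM). INSIG1, a sterol-sensing brake on that pathway, rose from 33.1, 14.0 and 35.5 CPM to 181, 141 and 197 CPM (2.64, SE 0.46, adjusted p 0.0028), and CYP51A1, of cholesterol synthesis, rose from 124, 75.8 and 121 CPM to 257, 228 and 277 CPM (1.25, SE 0.24, adjusted p 0.0059). Both held with each well left out. FADS1 (1.28) and SREBF2 (1.22, and -0.11 on TPM) were the other 2. Neither was called without day 20 well 1 or 2 or day 90 well 4, nor FADS1 without day 90 well 2 or 5, and the count was 2 without day 20 well 1 or 2 and 10 without day 20 well 3. FASN (-0.84) and ELOVL6 (-1.09), of fatty acid synthesis, were not called. Of 26 tested genes of the amino acid response driven by ATF4, 1 was called higher (3.85%, against 4.62%) and 2 lower (7.69%, against 3.05%; median -0.22). The amino acid transporter SLC7A5 fell from 131, 112 and 144 CPM to 32.9, 23.7 and 22.7 CPM (-2.29, SE 0.49, adjusted p 0.0097; 0.052 without day 90 well 5). Of 22 splicing regulators 0 were called by edgeR (median -0.17, 3 with an unadjusted p under 0.05, 1 higher and 1 lower by DESeq2), and HNRNPA1 had 1042, 799 and 825 CPM against 823, 635 and 924 CPM.

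**Figure D5:**
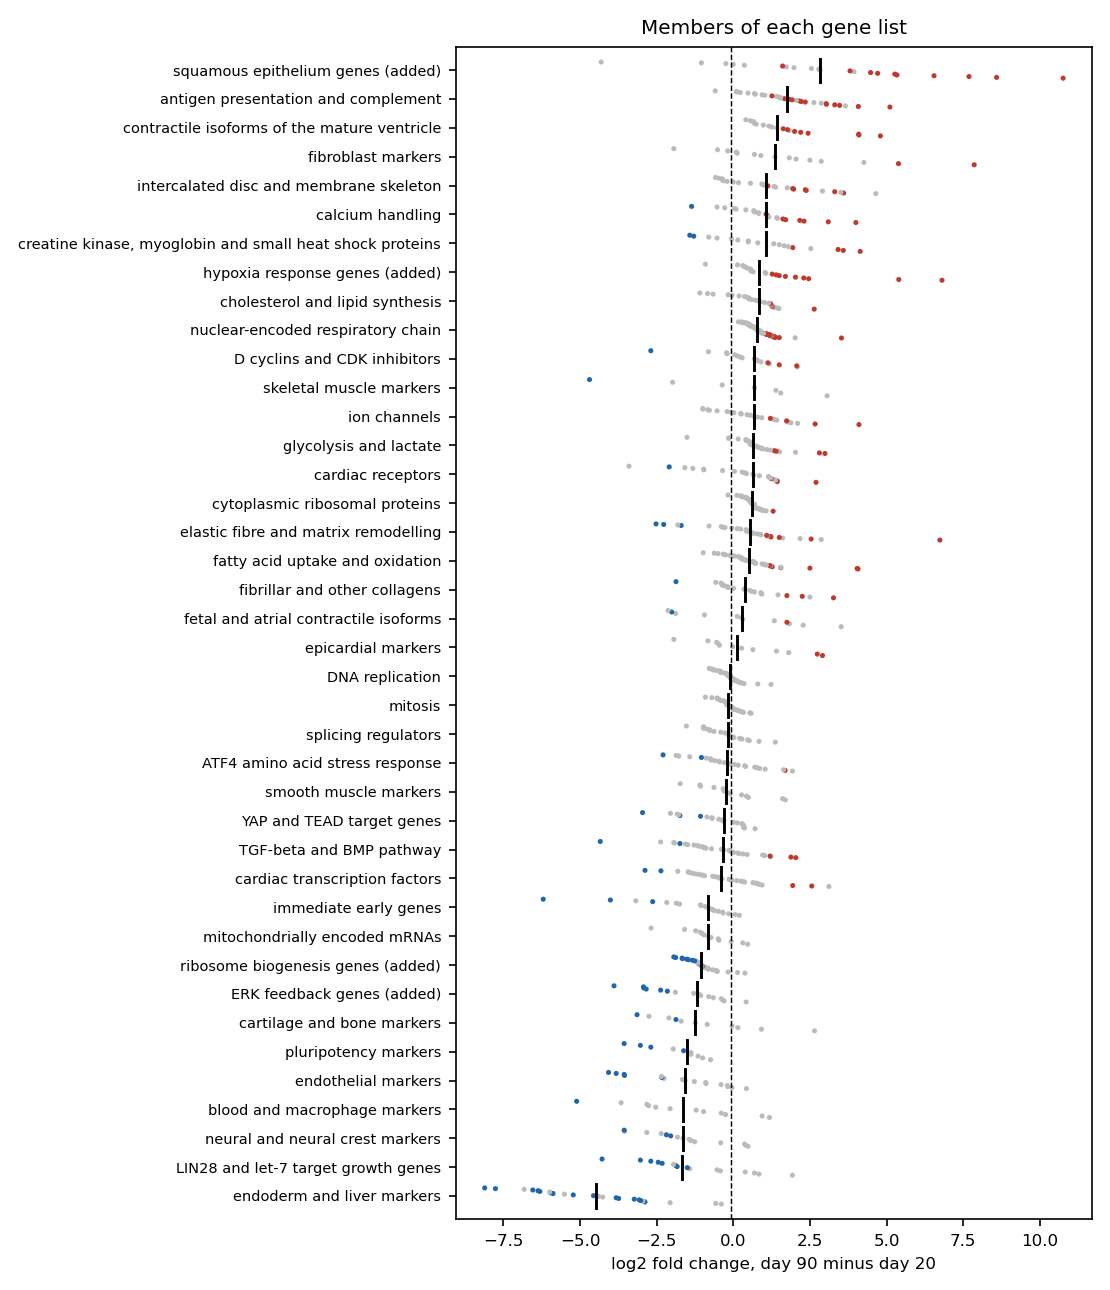
Log2 fold change (day 90 minus day 20) of each tested member of the 40 gene lists, ordered by the list's median (black bar); red points were called higher, blue points lower, grey points were not called, and the dashed line is the median of all tested genes, -0.07. Lists marked as added were drawn up after the calls were seen, and the endoderm and liver list lies lowest, at a median of -4.48.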

How the data were processed

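The 6 libraries compared are bulk total RNA of H1 cultures at days 20 and 90. The processing notes of the submitters name cutadapt, STAR 2.5.2b, RSEM 1.2.31 and hg38, without their roles. The deposited counts are expected counts per gene, as the authors estimated them, and 93.8% were whole; they were rounded before testing. The deposited TPM values are scaled by the authors to transcript length and to a fixed library total. The RNA integrity number, a score, and the lane were taken from the table the authors deposited. Of 60499 identifiers 56769 were named from GENCODE 29.

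Genes that passed filterByExpr in the libraries of days 11, 14, 20, 30 and 90 were scaled by TMM and tested with edgeR 4.0.16 (R 4.3.3) by glmQLFit and glmQLFTest, with Benjamini-Hochberg adjustment. Alternatives used DESeq2 1.42.0, limma 3.58.1 (voom, and log2(TPM + 1) or log2(TPM + 0.1)), other scalings, filters and libraries, lane as a term, and each well left out. TPM rescaled over nuclear protein-coding genes was added after seeing the data. The code was tested on simulated data, where 12% of 100 genes changed 2-fold and 69% of 100 genes changed 4-fold were called. A gene that was not called is therefore not shown to be unchanged. The 12% does not measure detection alone, because a 2-fold change lies at the fold cutoff of a call. Counting intervals of ratios are 95% and cover counting error only.

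The members and the 36 gene lists were chosen with earlier results of these data known, and 4 lists, the GTTAAT and TATTTTTA motifs and the fibrinogen promoters were added after the calls were seen. Genes were named from the 3 markers, the 10 largest rises and falls among called protein-coding genes with at least 10 TPM in the higher group and ranges that did not overlap, up to 4 called members per list and direction with at least 5 CPM (with none called, the 2 with the highest CPM), and 3 long non-coding RNAs per direction with at least 1 TPM. Not each gene that the rule allows is given, and further list members are named to describe their list, chosen after their values were seen. Promoters are from RefSeq. A few list members are counted in their lists and not reported here by name.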

Additional observations from a re-analysis of the deposited data

How the results depend on the processing

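Against 1645 called genes, 60.2% of them higher, the fit of all 44 libraries called 3532 (45.7% higher), that of days 20 and 90 alone 917, DESeq2 2519, limma-voom 3216, limma on log2(TPM + 1) 1045 (8.1% higher) and on log2(TPM + 0.1) 3571 (4.1% higher), and lane as a term 2632 (45.5% higher). TPM rescaled over nuclear protein-coding genes, added after seeing the data, called 1819, 24.4% of them higher. With 1 well left out the count ran from 790 (without day 20 well 2) to 1841 (without day 20 well 3), and was 952 without day 20 well 1 and 806 without day 90 well 5. Why the counts differ was not tested, apart from fewer wells in the last fits. The difference in mitochondrial share ran from -1.26 without day 20 well 3 to 0.613 without day 20 well 2. Among named genes, LYZ, not called, had 1.18, -3.65 with limma-voom and -4.95 without day 90 well 4, its highest well (0, 6.90 and 0.0593 CPM at day 90), and SREBF2 -0.11 and -0.12 on log2(TPM + 1) and log2(TPM + 0.1). Of 138 named genes called, 67 were called with any 1 well left out. A call that held in those fits could still be lost on TPM, as for HAND2, PLN, SGCA and NR3C2. No paired analysis was possible because days 20 and 90 share 1 replicate number. Limits are 3 wells a day, 1 cell line, days that share no lane, and a shallow day 20 well 2 (6937136 counts).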
